A study of Mus musculus with 2 samples.

Results

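Lymphocyte egress genes and the activation gene Cd69 were examined in lists of open chromatin regions from mouse T helper 2 (Th2) cells. The 6 genes were Cd69, the sphingosine 1-phosphate (S1P) receptors S1pr1, S1pr2, S1pr4 and S1pr5, and Gpr183, of 21938 protein-coding genes on the main chromosomes. They were taken by name, with no threshold on their values. Every open region in a gene's body or within 50 kb of either end was taken from both lists, and regions that overlapped by at least 1 bp were joined. The 6 windows held 97 joined regions, of which 75 were in both replicates, out of 44136 such regions in the genome.

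S1P is kept high in blood and lymph and low within lymphoid tissue, and lymphocytes leave the tissue by following it through S1pr1, a receptor coupled to Gi proteins. On activation, T cells make Cd69, a membrane protein that binds S1pr1 and takes it off the surface, so that activated cells stay in the tissue. Gpr183 (also called EBI2) senses oxysterols and places lymphocytes within lymphoid organs.

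The assay was ATAC-seq, in which a transposase cuts and tags accessible DNA. The samples were primary Th2 cells, the CD4 T cells that secrete type 2 cytokines, of mouse strain C57BL/6NJ, with no treatment, sex or age given. They formed 1 group of 2 biological replicates, with no control and no second condition. The labels list separate biosamples under the same donor record, so the spread between the replicates may be technical. The labels link a protocol for differentiating CD4 T cells, whose conditions were not used here. No comparison between conditions and no p-value was therefore possible, and each value below is given for replicate 1 and then replicate 2.

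The lists held 51557 and 60891 regions, and 65.7% of the joined regions were in both. Each region carries the authors' fold, the signal at its summit over local background, with medians of 5.58 and 5.65. Library depth is not stated, but the fold and p-value of a region fix its summit pileup under a Poisson model, and median pileups were 31 and 37. Replicate 2 had the higher fold in 71.3% of all regions found in both replicates. Promoters of 7 of 8 Th2 genes (not Il1rl1) and of 6 of 6 T cell genes were open in both replicates. Those of 0 of 3 B cell genes, 0 of 3 myeloid genes and 0 of 2 mast cell and basophil genes were open. Over all protein-coding genes the share was 58.4%. The T cell genes Cd3d and Cd3g had the same promoter fold, 6.35 and 6.96, so they are not separate observations. Among genes of other cell types, Eomes was the 1 open of 4 CD8 T and natural killer cell genes, Pecam1 the 1 open of 3 endothelial genes and Epcam the 1 open of 2 epithelial genes. Names of single regions hold ASTARR, insert and a 96 hour time, with no key to them, so whether cellular DNA or a cloned library was sequenced is unknown.

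A promoter was called open when a region found in both replicates came within 1 kb of an annotated start of the gene. By this rule 5 of the 6 genes had an open promoter, all but S1pr5, beside 58.4% of all protein-coding genes. Promoter fold was 9.69 and 10.2 at Cd69, 7.17 and 8.82 at S1pr1, 6.64 and 6.80 at S1pr2, 4.17 and 5.45 at Gpr183 and 3.92 and 3.95 at S1pr4. All 5 mean folds lay below 10.3, the median over the open promoters of all genes. Cd69 was closest to it, with 47.0% of open promoters lower, followed by S1pr1 with 29.7%, S1pr2 with 20.4%, Gpr183 with 8.89% and S1pr4 with 4.13%. In bulk chromatin, a region open in fewer cells and a region less open in each cell cannot be told apart.

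The number of regions in both replicates was 18 around Cd69, 17 around Gpr183, 15 around S1pr1, 10 around S1pr4, 9 around S1pr5 and 6 around S1pr2. Over all protein-coding genes the median was 4, with quartiles of 1 and 8. As many regions as at Cd69 or more were found for 0.966% of genes, as many as at Gpr183 for 1.20% and as many as at S1pr1 for 2.31%. The share was 13.7% for S1pr4, 18.6% for S1pr5 and 41.0% for S1pr2. Within the 6 windows, 3 further regions were called in replicate 1 alone and 19 in replicate 2 alone, the latter with a fold of 2.23 to 6.05.

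**Figure D1:**
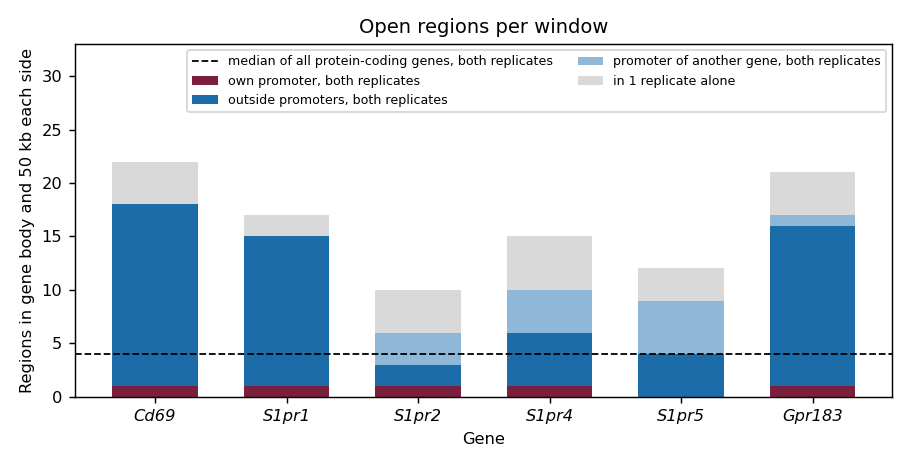
Number of joined regions (vertical axis) in the gene body and 50 kb on either side for each of the 6 genes (horizontal axis), split into the gene's own promoter, regions outside promoters and promoters of other genes, all in both replicates, and regions in 1 replicate alone, with a dashed line at the median of all genes. Cd69, Gpr183 and S1pr1 had 18, 17 and 15 regions in both replicates, above the median of 4 over all protein-coding genes.

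Cd69 lies on the minus strand at chr6:129267325-129275436 (mm10). Of its 18 regions in both replicates, 4 were centred upstream of the gene, 3 over its body, promoter included, and 11 downstream. None was the promoter of another protein-coding gene, and for 14 of the 18 the nearest start of a protein-coding gene was that of Cd69. The highest fold in the window was not at the promoter but at chr6:129284229-129285145, centred 9.25 kb upstream, with 13.6 and 18.0. This region lay higher than 96.2% of regions in replicate 1 and 99.7% in replicate 2. Its summit fell on the same base in both, as did that of the Cd69 promoter region, beside 8.87% of regions in the genome. The mean fold of the strongest region outside promoters was lower than at Cd69 for 97.9% of the genes with such a region. At Cd69 it was the highest of 17 regions, and the share was not matched for the number of regions.

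The promoter region, chr6:129274631-129276099, had 9.69 and 10.2, below the upstream region in each replicate. Counting error gave 95% intervals of 11.1 to 16.5 and 15.4 to 20.8 for the upstream region and 7.91 to 11.7 and 8.55 to 12.2 for the promoter. The intervals overlapped in replicate 1 and were apart in replicate 2. Summit pileups were 100 and 176 at the upstream region and 101 and 128 at the promoter, and the local background was 6.45 and 8.86 against 9.53 and 11.6. In replicate 1 the counts were therefore alike and the fold differed through the background, while in replicate 2 both differed.

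Both other strong upstream regions lay farther out. The region at chr6:129316388-129316790, 41.2 kb upstream, had 7.22 and 9.83, and its nearest protein-coding start was that of 4922502D21Rik, 15.2 kb away. The region at chr6:129298786-129299509, 23.7 kb upstream, had 6.93 and 7.23. The summit window of the latter was 92.0% soft-masked repeat sequence. It was 1 of 3 Cd69 regions that were more than 50% masked, the only ones in the 6 windows, beside 2.75% of all regions in both replicates. The other 2 began at 129260936 (68.0%) and 129234660 (82.5%), both downstream. The fourth, chr6:129314812-129316034, had 3.28 and 3.74, lower than the other 3 in both replicates. The sequences at the summits of the 2 regions with the highest fold outside the promoter are shown because they carry the strongest openings around Cd69. Each is 200 bases of mm10 read from the minus strand 5′ to 3′, at chr6:129284494-129284693 and chr6:129316500-129316699. Capitals mark matches to the 12 consensus sequences listed further on.
Cd69 region 9.25 kb upstream: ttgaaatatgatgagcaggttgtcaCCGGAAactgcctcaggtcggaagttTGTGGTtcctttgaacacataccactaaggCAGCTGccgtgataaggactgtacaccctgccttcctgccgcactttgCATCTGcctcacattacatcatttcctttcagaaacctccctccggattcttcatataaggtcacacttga
Cd69 region 41.2 kb upstream: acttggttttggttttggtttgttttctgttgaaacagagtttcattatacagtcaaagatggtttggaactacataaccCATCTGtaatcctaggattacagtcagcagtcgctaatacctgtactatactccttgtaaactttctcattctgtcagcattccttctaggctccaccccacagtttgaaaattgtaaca

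The region 9.25 kb upstream held the ETS letters at bases 26 to 31, the RUNX letters at 52 to 57 and E boxes at 82 to 87 and 130 to 135, counted from the 5′ end of the printed run. The region 41.2 kb upstream held 1 match, an E box at bases 81 to 86. A match is a description of the letters and says nothing of whether a protein binds there.

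Over the body of Cd69, the last exon (exon 5) lay under chr6:129267126-129268270, with 5.84 and 7.74. A weaker region in intron 1, chr6:129273585-129273965, had 3.34 and 3.46. These 2 regions did not overlap in their replicate values, and the promoter was above both.

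Downstream of the gene, the 3 nearest regions, chr6:129260936-129261253, chr6:129255914-129256291 and chr6:129254746-129255514, had 3.87 and 3.03, 3.90 and 4.23, and 5.26 and 4.59. The other 8 lay 37.2 to 54.8 kb from the start, within the long non-coding RNA gene 2310001H17Rik. Their mean folds ran from 2.93 to 5.16. None of the 8 reached the fold of the promoter in either replicate.

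Listed away from Cd69, these 8 began with chr6:129237786-129238595, which covers the starts of 2310001H17Rik and Gm47861 and had 4.52 and 5.66. It was followed by chr6:129237023-129237487 with 2.70 and 3.34, chr6:129235961-129236601 with 2.98 and 3.15 and chr6:129234660-129235362 with 3.04 and 2.82. These 3 formed a low stretch. Beyond it were chr6:129232771-129233151 with 3.74 and 4.52, chr6:129230077-129230734 with 5.02 and 5.31, chr6:129226768-129227213 with 3.85 and 4.94 and chr6:129219920-129221369 with 5.16 and 4.59.

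The low folds of these 8 regions did not go with low counts. Their pileups were 38 to 99 and 49 to 152, on a local background of 7.15 to 25.6 and 9.88 to 33.4. At the other 10 regions of the window the background was 2.90 to 9.53 and 3.43 to 12.0. The part of this background in the order of folds was not tested. Beyond these, 4 regions were called in 1 list alone, with folds of 2.23, 2.82 and 4.42 in replicate 2 and 4.18 in replicate 1.

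**Figure D2:**
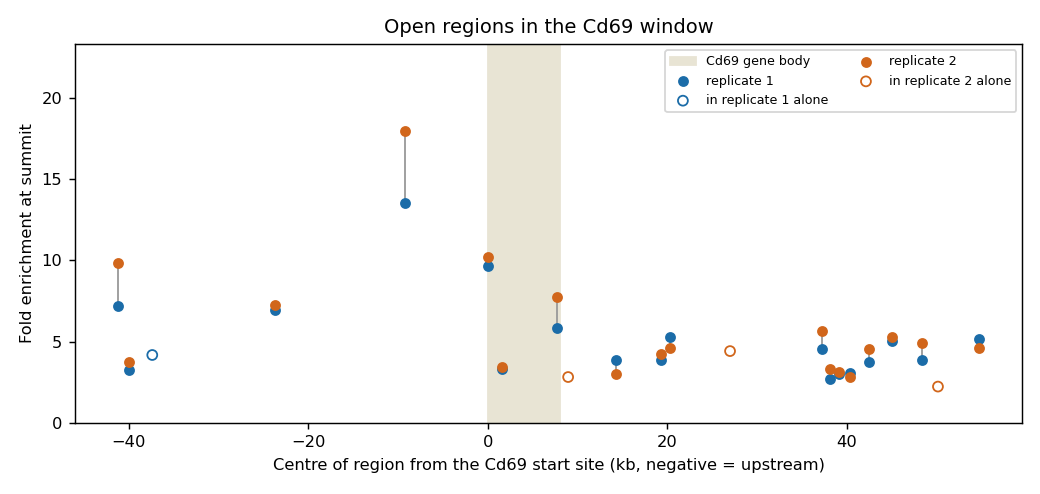
Fold (vertical axis) of each region in both replicates around Cd69 against the distance of its centre from the start in kb (horizontal axis), with 1 point for each replicate and open circles for regions in 1 replicate alone. The region 9.25 kb upstream, at 13.6 and 18.0, stands above the promoter, at 9.69 and 10.2, and the downstream regions lie lower.

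**Figure D3:**
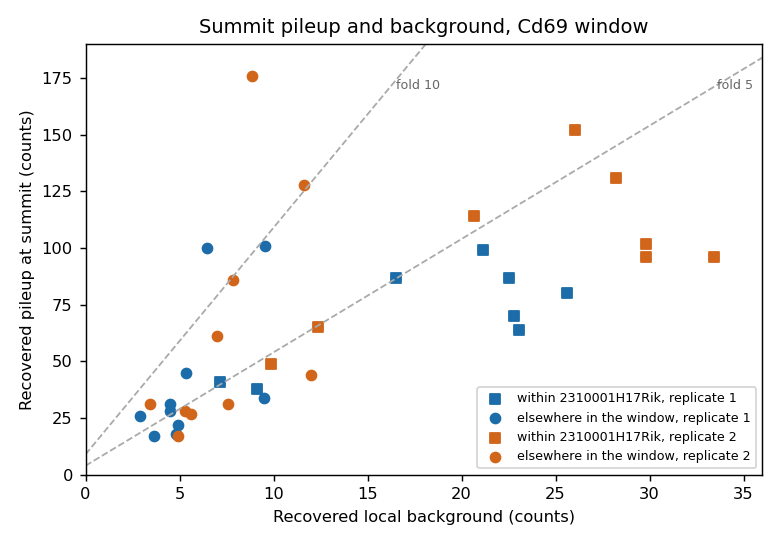
Summit pileup recovered from the deposited fold and p-value (vertical axis) against the recovered local background (horizontal axis) for the 18 Cd69 regions in each replicate, with dashed lines of equal fold. The 8 regions within 2310001H17Rik reach backgrounds of 25.6 and 33.4, above the 9.53 and 12.0 reached by the other 10.

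Ordered by mean fold, neighbouring Cd69 regions were close. Of 17 neighbouring pairs, 4 had both replicate values of one region above both of the other, and 0 also had counting intervals apart in both replicates. The order of neighbours is therefore not firm, and pairs farther apart in it were not counted.

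S1pr1, the receptor that drives exit into lymph and blood, lies at chr3:115710433-115715072 on the minus strand. Its window held no other protein-coding gene, so all 15 regions in both replicates were nearest to S1pr1. By their centres, 10 were upstream, promoter included, and 5 downstream. The promoter region, chr3:115714140-115716445, was 2306 bp wide, beside a median of 736 bp over all regions in both replicates, and also covered the start of the non-coding gene Gm9889 on the other strand. Its fold was 7.17 and 8.82, with pileups of 95 and 141.

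The strongest of its other regions, chr3:115760981-115761760, lay 46.3 kb upstream and had 8.59 and 9.55. It was followed by chr3:115742637-115743435, 28.0 kb upstream, with 8.58 and 8.33, and chr3:115740667-115741483, 26.0 kb upstream, with 6.50 and 8.56. The upstream region with the highest fold was above the promoter in each replicate, but the replicate values overlapped, since 8.59 lies under 8.82. Its pileups of 117 and 164 were above those of the promoter in each replicate too. Among genes with a region outside promoters, the strongest such region was lower for 55.0%, near the middle. At S1pr1 it was the highest of 14 regions, and the share was not matched for the number of regions.

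The S1pr1 regions formed an even series rather than 1 strong region among weak ones, with mean folds from 3.75 to 9.07. Of 14 neighbouring pairs, 2 were apart in their values and 0 in their counting intervals as well. S1pr1 is also made by endothelial cells. Of the 3 endothelial genes, Cdh5 and Tek had no open promoter and Pecam1 had 5.83 and 5.49, and the part of such cells in the S1pr1 values was not tested.

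**Figure D4:**
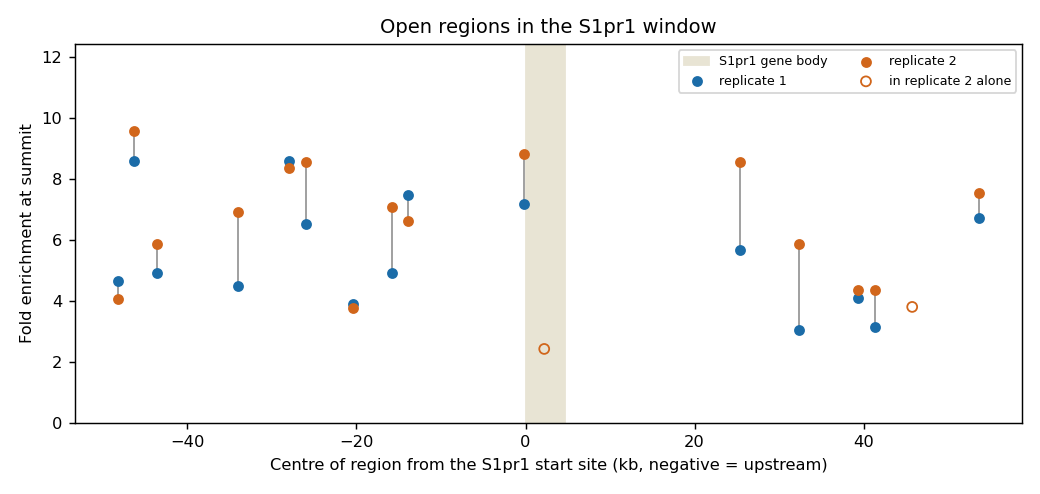
Fold (vertical axis) of each region in both replicates around S1pr1 against the distance of its centre from the start in kb (horizontal axis), with 1 point for each replicate and open circles for regions in 1 replicate alone. The promoter, at 7.17 and 8.82, lies among upstream regions of like fold, up to 8.59 and 9.55.

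S1pr2, which couples to G12 and G13 proteins and restrains migration, lies at chr9:20962361-20976781. Its promoter region, chr9:20975688-20977157, had 6.64 and 6.80. Of its 6 regions, 3 were promoters of neighbouring genes, at Dnmt1 with 12.9 and 15.3, Mrpl4 with 8.35 and 9.42 and Icam1 with 7.76 and 8.64. Each of these neighbours exceeded the S1pr2 promoter in both replicates.

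The strongest S1pr2 region outside promoters, chr9:20961305-20962172, had 7.66 and 12.0 and lay 15.0 kb downstream of the S1pr2 start but 1.85 kb from a start of Dnmt1. A region in the body, chr9:20973970-20974636, had 4.24 and 6.28. With 2 regions nearest to its own start, S1pr2 had few openings that its position assigns to it.

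S1pr4, a receptor found mainly on blood and lymphoid cells, lies at chr10:81497747-81500132. The region called at its promoter, chr10:81498673-81499802, ended 330 bp inside the gene and was centred 0.894 kb from the start in its single exon. Its fold of 3.92 and 3.95 was the lowest of the 5 open promoters, although its pileups of 85 and 106 were above those at the S1pr2 and Gpr183 promoters in both replicates. S1pr4 passed the promoter rule through distance, and no region covered its start in both replicates.

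Around S1pr4 the 3 regions with the highest mean fold were the promoter of Gna11 with 13.5 and 15.3, chr10:81510161-81510691 in an intron of Gna15 with 11.5 and 12.5 and the promoter of Ncln with 9.47 and 10.9. Gna11 and Gna15 encode G protein alpha subunits. The Gna15 region lay 10.3 kb upstream of S1pr4. In all, 4 of the 10 regions were promoters of other genes, those of Celf5, Ncln, Gna15 and Gna11, and 2 were nearest to S1pr4.

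S1pr5, known for guiding natural killer cells out of bone marrow and lymph nodes, lies at chr9:21242912-21248443. It had no open promoter: the nearest region in both replicates ended 3173 bp inside the gene, in exon 3 at chr9:21244167-21245270, with 3.74 and 4.35. The regions of its window with the highest mean fold belonged to neighbours, the promoters of Atg4d with 12.4 and 12.2, Cdkn2d with 8.89 and 9.00 and Keap1 with 6.79 and 10.2. Only 1 of its 9 regions was nearest to S1pr5.

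The Keap1 promoter was the 1 region of the 75 whose counting intervals did not overlap between replicates. Outside promoters the strongest region, over the start of the antisense gene Gm16754, had 6.96 and 8.25. Ncr1, Prf1 and Cd8a, markers of natural killer and CD8 T cells, also lacked an open promoter, and Eomes had 4.44 and 6.62.

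Gpr183 lies at chr14:121952551-121965195, inside an intron of Ubac2 on the other strand. Its promoter region, chr14:121964918-121965996, had 4.17 and 5.45, with pileups of 46 and 67, the lowest pileups of the 5 open promoters. Of 17 regions in both replicates, 8 were centred upstream, promoter included, 4 over the body and 5 downstream. The strongest, chr14:122000326-122001376 in an intron of Ubac2, lay 35.7 kb upstream and had 10.2 and 12.2. Its nearest protein-coding start was that of Timm8a2, 33.8 kb away.

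Both next regions lay downstream of Gpr183, chr14:121930778-121931805 with 8.98 and 9.87 and chr14:121904781-121906710 with 7.38 and 8.47. The 4 body regions were lower, from 2.40 and 2.39 at the weakest to 5.60 and 5.26 at chr14:121954792-121955962. The promoter of Gpr18, another receptor gene in the window, had 7.64 and 7.29, above the Gpr183 promoter in both replicates. Of the 17 regions, 9 were nearest to the Gpr183 start and 1 was the Gpr18 promoter.

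The strongest region outside promoters had a higher fold than the promoter in both replicates at 5 of the 5 genes with an open promoter, beside 31.9% of all genes with one. Genes with no region outside promoters enter that share, and the 27.5% below, as not higher. The count of 5 was chosen after its values were seen. It moves with the number of regions: among genes with at least 14 regions outside promoters, as Cd69, S1pr1 and Gpr183 have, the share was 74.3%. By summit pileup in place of fold the count was 3 of 5, S1pr1, S1pr4 and Gpr183, beside 27.5% of genes.

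**Figure D5:**
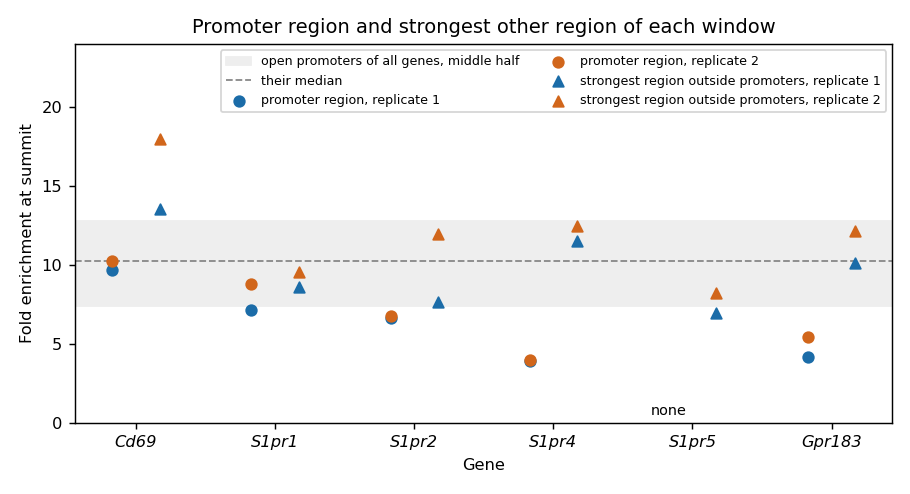
Fold (vertical axis) of the promoter region (circles) and of the strongest region outside promoters (triangles) for each gene (horizontal axis), with 1 point for each replicate, a grey band for the middle quartiles and a dashed line for the median of all open promoters. At Cd69, S1pr1, S1pr2, S1pr4 and Gpr183 the region outside promoters was higher in each replicate, and S1pr5 has no promoter value.

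Among the 75 regions called in both replicates, which leaves out the 3 and 19 called in 1 replicate alone, intervals from counting error overlapped between replicates at 74. Replicate 2 had the higher fold at 55 of the 75, beside the 71.3% of all regions given above. Over S1pr2, S1pr4, S1pr5 and Gpr183 neighbouring regions in the order of fold were apart in values and intervals in 1 pair, the promoter of Atg4d over that of Cdkn2d.

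The sequences at the strongest regions outside promoters of the other open genes are shown so that they can be set beside those of Cd69. They are 200 bases of mm10 from the minus strand, 5′ to 3′, at chr3:115761339-115761538, chr9:20961639-20961838, chr10:81510329-81510528 and chr14:122000805-122001004. Capitals again mark consensus matches.
S1pr1 region 46.3 kb upstream: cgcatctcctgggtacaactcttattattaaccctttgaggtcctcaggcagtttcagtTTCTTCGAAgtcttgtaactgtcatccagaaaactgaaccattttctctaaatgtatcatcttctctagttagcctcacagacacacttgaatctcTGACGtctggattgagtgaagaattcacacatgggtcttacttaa
S1pr2 region 15.0 kb downstream: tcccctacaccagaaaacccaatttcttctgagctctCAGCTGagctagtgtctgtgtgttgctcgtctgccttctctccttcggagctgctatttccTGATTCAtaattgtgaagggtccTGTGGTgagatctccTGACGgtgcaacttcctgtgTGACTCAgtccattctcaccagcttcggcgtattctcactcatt
S1pr4 region 10.3 kb upstream: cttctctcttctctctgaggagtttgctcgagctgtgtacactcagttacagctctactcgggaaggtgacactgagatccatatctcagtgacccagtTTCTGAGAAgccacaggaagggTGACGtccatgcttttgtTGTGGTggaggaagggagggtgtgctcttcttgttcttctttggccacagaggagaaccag
Gpr183 region 35.7 kb upstream: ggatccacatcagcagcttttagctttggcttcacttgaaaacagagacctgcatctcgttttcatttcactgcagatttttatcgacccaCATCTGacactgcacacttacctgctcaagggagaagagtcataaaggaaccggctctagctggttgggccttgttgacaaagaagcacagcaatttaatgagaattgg

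The S1pr1, S1pr2 and S1pr4 windows each held the CRE letters, the S1pr1 and S1pr4 windows a STAT match, and the S1pr2 and S1pr4 windows a RUNX match. The S1pr2 window also held an E box at bases 38 to 43 and AP-1 matches at bases 99 to 105 and 157 to 163. The Gpr183 window held 1 match, an E box.

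Promoter sequences from RefSeq (GRCm38.p6) were found for 4 of the 6 genes, not for Cd69 and S1pr1. They are shown because the promoter rule separates S1pr5 from the rest. For S1pr4 the call rests on distance, and no region in both replicates covers its printed run. Each run is 190 bases from the minus strand, from 200 to 11 bases before the RefSeq start, at chr9:20976804-20976993, chr10:81500148-81500337, chr9:21248454-21248643 and chr14:121965204-121965393.
S1pr2 promoter: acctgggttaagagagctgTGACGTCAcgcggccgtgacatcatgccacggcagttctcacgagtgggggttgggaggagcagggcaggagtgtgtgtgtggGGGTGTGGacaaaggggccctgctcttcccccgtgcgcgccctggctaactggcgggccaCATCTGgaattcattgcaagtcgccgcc
S1pr4 promoter: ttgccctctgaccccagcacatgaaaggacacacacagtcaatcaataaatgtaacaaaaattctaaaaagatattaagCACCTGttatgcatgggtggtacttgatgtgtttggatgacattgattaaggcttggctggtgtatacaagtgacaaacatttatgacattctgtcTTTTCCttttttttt
S1pr5 promoter: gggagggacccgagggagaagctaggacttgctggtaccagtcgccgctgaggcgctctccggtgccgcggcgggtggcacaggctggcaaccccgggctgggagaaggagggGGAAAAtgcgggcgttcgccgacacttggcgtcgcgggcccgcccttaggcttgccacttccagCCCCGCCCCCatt
Gpr183 promoter: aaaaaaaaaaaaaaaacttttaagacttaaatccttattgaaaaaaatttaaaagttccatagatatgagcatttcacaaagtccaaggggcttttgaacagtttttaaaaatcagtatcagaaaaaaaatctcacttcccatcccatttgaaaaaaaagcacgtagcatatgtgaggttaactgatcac

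The closed S1pr5 promoter held KLF matches at bases 178 to 185 and 180 to 187, which overlap each other, and an NFAT match. The S1pr2 promoter held 1 KLF match, 2 overlapping CRE matches and an E box, the S1pr4 promoter an E box and an NFAT match, and the Gpr183 promoter no match. Of 32851 RefSeq promoter windows of the same length, 40.8% held the KLF letters, 36.5% the E box, 15.6% the NFAT letters and 14.7% the CRE letters. No match says only that these letters are not in the window. In 1 kb around the start, the ratio of observed to expected CpG was 0.454 at S1pr5, 0.602 at S1pr1, 0.559 at S1pr2, 0.301 at Cd69, 0.291 at Gpr183 and 0.106 at S1pr4. The medians were 0.725 for open and 0.207 for closed promoters of all genes. Closed S1pr5 thus lay above 3 of the genes called open, S1pr4 among them.

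The capitals stand for 12 consensus sequences, given here with the shares of regions that hold them on either strand within 200 bp at the summit. Matches of different factors may overlap. The E box letters CAGNTG were found in 12 of the 18 Cd69 regions (66.7%), beside 40.6% of all 44058 regions searched and 44.4% of those outside promoters, and the 3 mostly soft-masked regions were among the 12. For GATA factors the letters AGATAA were in 4 (22.2%), beside 9.06% and 11.7%. For NFAT, a factor of the activated T cell receptor pathway, GGAAAA was in 4, beside 13.1% and 14.1%.

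AP-1, the Fos and Jun dimer, was searched as TGANTCA and found in 4 Cd69 regions, beside 21.2% of all regions and 28.0% of those outside promoters. RUNX, searched as TGTGGT, was in 3 (16.7%), beside 18.3% and 22.5%. KLF, searched as CCNCNCCC, was in 3, beside 30.8% and 20.02%. STAT, searched as TTCNNNGAA, was in 2 (11.1%), beside 10.2% and 12.5%. These shares lie on both sides of the genome's.

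ETS, searched as CCGGAA, was in 1 (5.56%), beside 9.45% and 4.51%. NF-kB, searched as GGGNNTTCC, was in 1, beside 4.37% and 4.18%. FOXO, searched as TGTTTAC, was in 0, beside 1.98% and 2.28%. CRE, searched as TGACG, was in 0, beside 13.9% and 9.54%, and EGR, searched as GTGGGCG, was in 0, beside 4.78% and 2.21%. With 18 regions of 1 window, these shares describe the window and were not tested.

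Over all 75 regions of the 6 windows, E boxes were in 29 (38.7%, beside the 40.6% of all regions), KLF letters in 21 (28.0%, beside 30.8%), RUNX in 14 (18.7%, beside 18.3%) and STAT in 12 (16.0%, beside 10.2%). AP-1 letters were in 11 (14.7%, beside 21.2%), GATA in 9 (12.0%, beside 9.06%), NFAT in 8 (10.7%, beside 13.1%) and CRE in 7 (9.33%, beside 13.9%). ETS letters were in 5 (6.67%, beside 9.45%), EGR in 3 (4.00%, beside 4.78%), and FOXO and NF-kB in 2 each (2.67%, beside 1.98% and 4.37%).

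The other genes of the pathway were taken as a list of 33, of which 29 (87.9%) had an open promoter, beside the 58.4% of all genes. Their median number of regions was 7, beside 4 over all protein-coding genes. Their median promoter fold was 7.41, beside 10.3 over the open promoters of all genes. S1pr3, the remaining S1P receptor, was open with 3.54 and 4.70. Of 10 genes that make, break down or carry S1P, 8 were open, among them the kinases Sphk1 with 5.12 and 6.35 and Sphk2 with 9.69 and 10.6 and the lyase Sgpl1 with 10.5 and 12.1. Sgpp2, an S1P phosphatase, and Apom, an S1P carrier of plasma, were not.

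All 13 genes for receptor coupling and desensitisation were open. Gna12, a G protein alpha subunit, had the highest fold of them with 16.2 and 19.0, and Gnai2, the main Gi subunit of lymphocytes, had 10.8 and 11.4 with 14 regions. The kinase Grk2, which desensitises S1pr1, had 4.89 and 4.99, and Rgs1, an inhibitor of Gi signalling, had 5.31 and 5.72 with 14 regions.

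Among the transcription factors of egress and homing genes and the homing receptors, 4 had an open promoter, Klf2, Foxo1, Ccr7 and Cxcr4. Klf2, which activates S1pr1, had 10.8 and 11.4, Foxo1 had 6.15 and 5.82, and Ccr7, the receptor that retains cells in lymph nodes, had 4.95 and 5.36 with 16 regions. Cxcr4, a chemokine receptor, had 8.91 and 9.89. Of 4 genes that make or break down the Gpr183 ligand, Ch25h had 5.15 and 7.28, Hsd3b7 had 5.77 and 7.74 and Cyp27a1 had 3.85 and 4.52. Cyp7b1, which makes the ligand from 25-hydroxycholesterol, had no open promoter and 0 regions.

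Likeness was measured as the Euclidean distance over 3 values averaged over 2 replicates, the log2 promoter fold, the log2 of 1 plus the number of regions, and the log2 of the strongest fold outside promoters. Among 11464 genes, those most like Cd69 were Itpr2 at a distance of 0.128, Slc9a9 at 0.133 and Atp9b at 0.137. Itpr2 had 19 regions, a promoter fold of 10.4 and 10.97 and a strongest other region of 15.4 and 15.7. Most like S1pr1 among 11465 genes were Wipf1 at 0.0639, Castor1 at 0.0686 and Sema7a at 0.0989, and Wipf1 had 15 regions and a promoter fold of 7.82 and 8.50.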

How the data were processed

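ATAC-seq of 2 biological replicates of 1 group was deposited as 1 region list per library. Calls were made per library on mm10, not on pooled reads, per the file headers. Aligner and peak caller: not given in the sources used here. The deposited fold is a ratio of summit signal to local background. Of the authors' 2 significance columns, the deposited −log10 p gave pileups and the deposited −log10 q a stricter list, and the deposited score, a capped multiple of −log10 q, was checked and not used. Pileup and background were recovered where a whole number returned the deposited p within 0.001 of −log10 p, which held for 99.98% and 99.93% of regions. The sources used here do not say whether the pileup counts reads, fragments or cut sites. Intervals are exact 95% Poisson intervals of the pileup, carried to the fold, and cover counting error only.

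Regions were joined at 1 bp and annotated with GENCODE M21 (basic), in Python 3.11.15 with pandas 2.3.3, numpy 2.4.6 and scipy 1.17.1, after tests on simulated data. "Outside promoters" means not a promoter region of any protein-coding gene. Named were all 6 genes, every Cd69 region, the promoter and the 3 strongest regions of the others, the genes with the nearest starts, pathway and marker lists and the 3 genes most like Cd69 and S1pr1; of the pathway list, examples are given, and 1 of its genes is counted but not reported here. Genes, lists and alternatives were chosen with earlier results of these data known, so patterns already known give no independent support. Other windows, promoter distances, stricter lists, stricter overlap, single replicates and other motif windows were tried.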

Additional observations from a re-analysis of the deposited data

How the results depend on the processing

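The count of 5 genes with an open promoter was 5 under each of the 6 alternatives run. The wider distance of 2.5 kb could not lower this count, and no distance below 1 kb was run. S1pr4 passed through distance, so whether its call holds at a shorter distance was not tested. The number of regions moved with the window. Cd69 had 18 within 50 kb, 7 within 20 kb, 26 within 100 kb and 3 overlapping the gene body. The other 5 genes together had 57 within 50 kb, 25 within 20 kb, 107 within 100 kb and 10 overlapping the gene bodies. When joining required an overlap of 50% of each region, Cd69 had 14 and the other 5 genes together 53. With −log10 q of at least 10, Cd69 had 12, S1pr1 10 instead of 15, Gpr183 10 instead of 17 and the other 5 genes together 41. Consensus matches in Cd69 regions went from 34 of 216 pairs of region and consensus to 72 when the whole region was searched, which holds more bases. The count of 5 genes with a stronger region outside promoters, whose alternatives were all chosen after the data were seen, was 3 by summit pileup and 4 with a 20 kb window or a 2.5 kb promoter distance. With either replicate alone, Cd69 had 19 to 22 regions and the other genes 59 to 75. No paired analysis was possible because there is 1 group. Library depth is not stated, and with 2 replicates a mean always lies within 1 SD of either value.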

Other observations

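The strongest region of the 6 windows called in 1 replicate alone lay at chr14:121919611-121920162, in the window of Gpr183. It had a fold of 6.05 and a pileup of 104 in replicate 2 and no call in replicate 1.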
